A study of Rattus norvegicus with 12 samples.

Results

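Adipokines are proteins that fat cells release into the blood or the surrounding tissue, and this account follows resistin (Retn) together with Adipoq, Lep, Cfd, Nampt, Apln, Rarres2 and Agt in the mammary gland of estrogen-treated rats. The genes were chosen by symbol: each is the probe set that carries that symbol alone, and each had exactly 1 such probe set. They are 8 of the 14506 genes that have a probe set of their own on the array, and all 8 had signals high enough to be tested.

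Mammary glands came from 12 female Lewis rats, ovariectomized at about 10 weeks of age and treated 14 days later, 3 rats and 3 arrays per group. The E2+3-MC rats were given both compounds, the E2 rats received 17β-estradiol (E2, the main ovarian estrogen) at 4 μg per kg per day, the 3-MC rats received 3-methylcholanthrene (3-MC, a polycyclic aromatic hydrocarbon that activates the aryl hydrocarbon receptor) at 15 mg per kg per day, and the control rats received the vehicle, DMSO in the labels and DMSO with castor oil in the methods. All of them lacked ovaries, so the vehicle rats stand for a gland without ovarian hormones, and all were injected subcutaneously 3 times at intervals of 24 hr and dissected 24 hr after the last injection, which the labels give as 48 h of treatment. The RNA is that of whole gland, and a lower level of a transcript in it can come from fewer cells of a type or from less RNA per cell, which cannot be told apart.

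Mammary epithelium grows in a pad of white fat, and the adipocytes of that pad are a known source of the proteins named here. Adipokines act on appetite, insulin sensitivity, blood vessels and immune cells, and several of them also act locally on neighboring epithelium. Resistin, encoded by Retn, is a small cysteine-rich hormone that white adipocytes secrete in rodents and that opposes insulin action in mice. Adipoq encodes adiponectin, which raises insulin sensitivity, and Lep encodes leptin, the satiety hormone. Rarres2 encodes chemerin, a chemoattractant that acts through the receptor Cmklr1. Apln encodes apelin, the ligand of Aplnr, Agt encodes angiotensinogen, the precursor that renin cleaves, Cfd encodes adipsin (complement factor D), a protease of the alternative complement pathway, and Nampt encodes the rate-limiting enzyme of NAD salvage, which is also secreted.

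The values are linear signal intensities, compared as log2(intensity + 16). A gene is called changed at a Benjamini-Hochberg adjusted p under 0.05 in limma, over 23371 tested probe sets, together with at least a 1.5-fold difference. Between any pair of arrays the log2 values correlated at 0.952 to 0.988. All 14 luminal epithelial markers and 15 of 16 white adipocyte markers were tested. Skeletal muscle markers were uneven among the rats, with summed intensities over 11 genes of 657.8 to 2237 in E2+3-MC rats, 1102 to 7333 in E2 rats, 523 to 27260 in 3-MC rats and 459.6 to 36910 in vehicle rats. The number of arrays limits the precision, and with 3 rats per group the smallest p of an exact two-sided permutation test is 0.1.

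Resistin mRNA was lower in every rat that had received E2 than in any rat that had not. Retn intensity was 347.4, 337.6 and 443.2 in the E2+3-MC rats, 255.9, 318.8 and 365.0 in the E2 rats, 1143, 1287 and 799.6 in the 3-MC rats and 1150, 933.6 and 861.9 in the vehicle rats. The highest E2-treated rat, at 443.2, thus lay well below the lowest rat without E2, at 799.6. In order of the group means, E2 was lowest (313.2 ± 54.8), then E2+3-MC (376.1 ± 58.4), vehicle (981.8 ± 149.9) and 3-MC (1077 ± 250.6; SD, n = 3 each). The neighbors E2 and E2+3-MC overlapped, as did vehicle and 3-MC, and only the step between E2+3-MC and vehicle separated the rats.

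**Figure D1:**
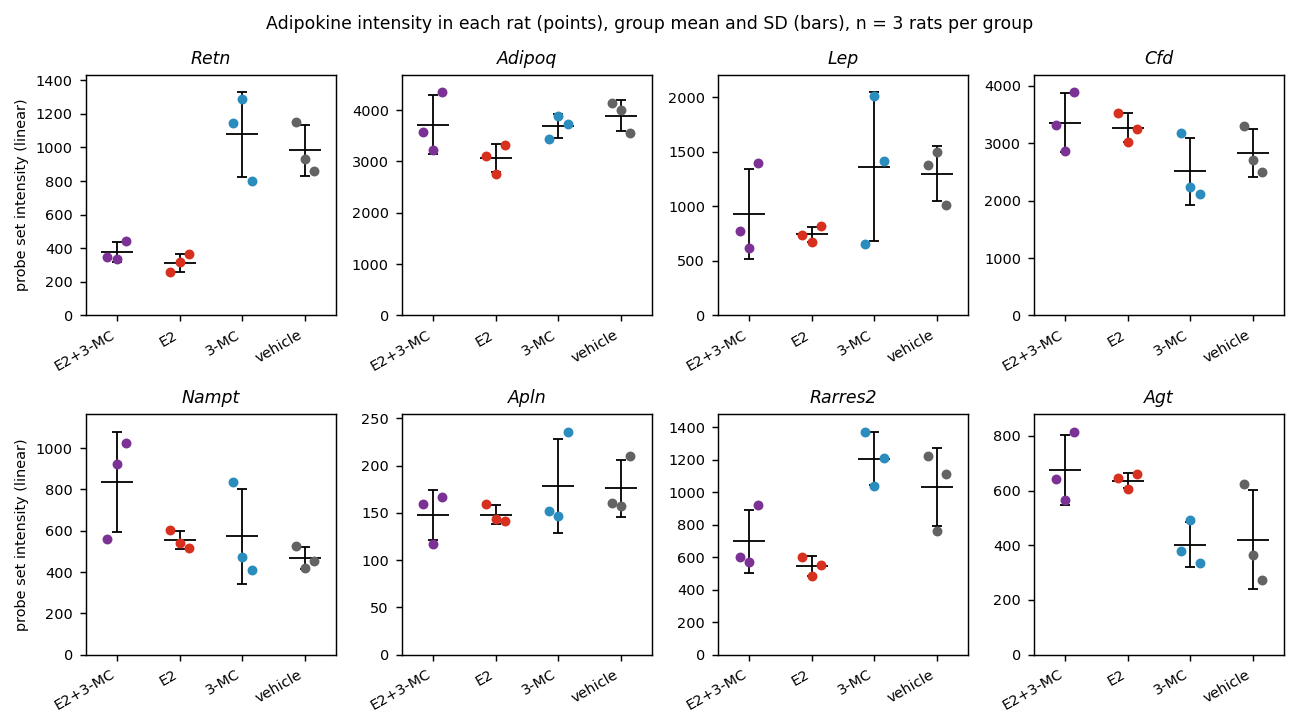
Probe set intensity (linear, y axis from 0) of the 8 adipokines in each rat, with the group mean and SD drawn as bars, n = 3 rats per group. Retn sits at 255.9 to 443.2 in the 6 rats given E2 and at 799.6 to 1287 in the 6 rats without it, whereas the groups of Cfd and Apln overlap.

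The bases just upstream of Retn are shown because Retn alone of the 8 adipokines did not overlap between the rats with E2 and those without. The printed stretch is chr12:6508524-6508652 on the plus strand of GRCr8, from the RefSeq promoter table, 129 bases that end at the last base before the annotated gene. Capitals mark a match to GGTCA, the core repeat of the estrogen response element, at position 83 counted from the first printed base.
Retn: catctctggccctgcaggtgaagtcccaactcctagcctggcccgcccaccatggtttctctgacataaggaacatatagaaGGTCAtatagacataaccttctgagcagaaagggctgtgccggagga
Of 33469 promoters, 20.2% held GGTCA on either strand in the first 129 bases of their entry, which for other genes need not end at the gene start. The full palindrome, GGTCANNNTGACC, had no match here and was found in 0.0149% of promoters. GCGTG, the core bound by the aryl hydrocarbon receptor, and TTGCNNAA, a C/EBP site, had no match either and were found in 13.4% and 5.02% of promoters, both strands searched. The palindrome contains the core repeat, and a match of letters is not a measured binding site. Promoter entries were matched for 6 of the 8 genes.

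Retn was 3.04-fold lower with E2 than with vehicle, a log2 change of -1.60 (SE 0.193, 95% interval -2.02 to -1.19, adjusted p = 0.00102). Among the 67 probe sets lower with E2, only that of Pnpla3, a lipid droplet enzyme, had a larger fall (-2.10). Of all tested probe sets, 1.3% were called higher and 0.287% lower, and among the adipokines 0 were higher and 1, Retn, was lower. The 370 calls numbered 174 or 228 when vehicle rat 1 or 2 was left out, and 111, 85 or 236 when E2 rat 1, 2 or 3 was left out. Retn was called in each of these fits.

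The fall in Retn was also measured between rats that share no animal with this comparison. In rats given 3-MC, adding E2 left Retn at 347.4, 337.6 and 443.2 in E2+3-MC rats, against 1143, 1287 and 799.6 in 3-MC rats. The difference was 2.75-fold (log2 -1.46, 95% interval -1.88 to -1.05, adjusted p = 0.00396). In this comparison 0.103% of probe sets were called higher and 0.00856% lower, and Retn was 1 of only 2 lower ones, beside Lefty1 (-1.04), an inhibitor of Nodal signaling. The 26 calls became 42 without E2+3-MC rat 2. With the arrays of the E2+3-MC and 3-MC rats fitted alone in limma, Retn was called with an adjusted p of 0.02.

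Against vehicle, Retn in E2+3-MC rats was 2.54-fold lower (log2 -1.35, 95% interval -1.76 to -0.93, adjusted p = 0.00829). Here 0.154% of probe sets were called higher and 0.00856% lower, and the other lower one was Abca8a (-1.03), an ABC transporter. Without E2+3-MC rat 1 the Retn change was -1.30 with an adjusted p of 0.0635, which ends the call. The 38 calls became 85 without vehicle rat 3, 22 without E2+3-MC rat 1 and 22 without E2+3-MC rat 3.

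The methods' t-test with adjustment does not share an estimate of spread among probe sets. It was run on the log2 values of the main fit without the methods' normalization and baseline, so it is not the authors' full procedure. This test ended the Retn call with E2 against vehicle (adjusted p = 0.178), with E2+3-MC against 3-MC (adjusted p = 0.993) and with E2+3-MC against vehicle (adjusted p = 0.576). It called 7, 0 and 0 probe sets in these comparisons. The paper reports Retn as suppressed by E2.

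3-MC by itself left no detectable mark on Retn. Against vehicle, the log2 difference was 0.11 (95% interval -0.30 to 0.53, adjusted p = 0.955). Added to E2, 3-MC gave a difference from E2 of 0.26 (95% interval -0.16 to 0.67, adjusted p = 0.742). The log2 change of Retn against vehicle was 84% as large with E2+3-MC as with E2. The test of whether the E2 effect differed with and without 3-MC gave 0.14 on the log2 scale (95% interval -0.44 to 0.73, adjusted p = 0.989). The intervals leave room for a rise of up to 0.67 on the log2 scale when 3-MC joins E2.

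In none of these 3 comparisons were adipokines called, and the share of all probe sets called was 0% in each. At an unadjusted p under 0.05, limma gave 0 adipokines and 991 probe sets for 3-MC against vehicle, 1 adipokine, Nampt, and 2049 probe sets for E2+3-MC against E2, and 0 adipokines and 1032 probe sets for the interaction. The methods' t-test with adjustment also called 0 adipokines in both comparisons of groups and was not run for the interaction. The 0 calls of E2+3-MC against E2 became 10 without E2 rat 3 and 1 without E2+3-MC rat 1, and 359 when the 6 arrays of these groups were fitted alone, none of them an adipokine.

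**Figure D2:**
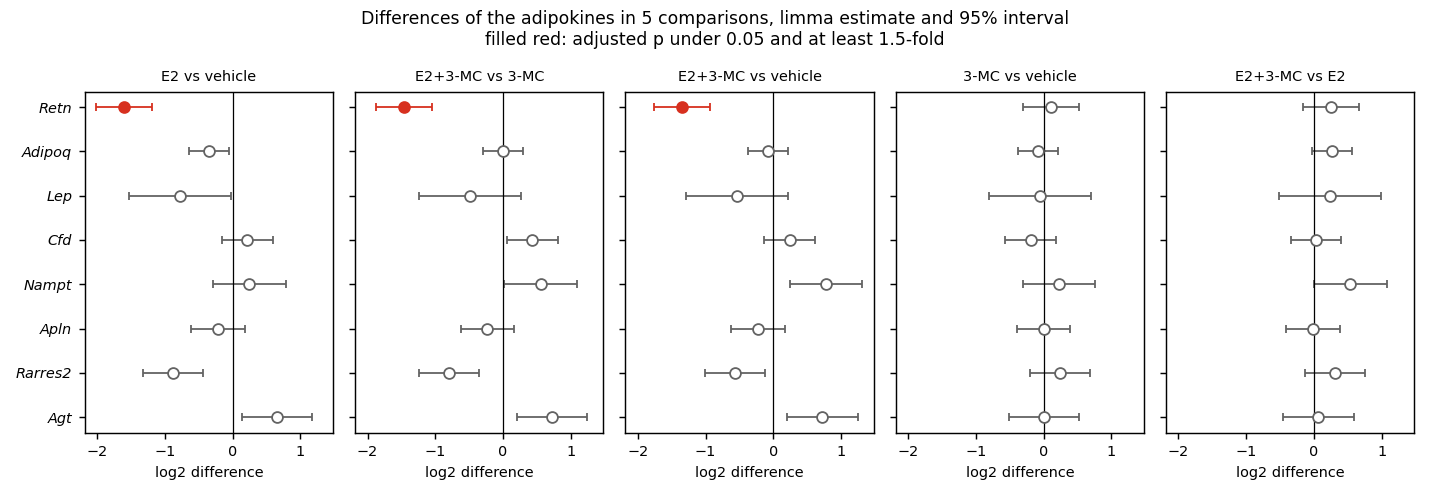
Log2 differences of the 8 adipokines in 5 comparisons (x axis, the first-named group minus the other), each with its 95% interval from limma, with filled red points for called differences. Retn is called in the 3 comparisons in which E2 was given to the first group alone, at -1.60, -1.46 and -1.35, and lies at 0.11 and 0.26 in the other 2.

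As both E2 contrasts pointed one way for Retn, the 6 rats given E2 were also set against the 6 rats not given it, a comparison added after the values were seen. Retn was 2.89-fold lower with E2 (log2 -1.53, 95% interval -1.83 to -1.24, adjusted p = 3.74e-05). Of all probe sets, 0.757% were called higher and 0.359% lower in this comparison, and among the adipokines 0 were higher and 2 lower, Retn and Rarres2. Retn alone of the 8 genes did not overlap between the 6 and 6 rats, a separation seen downward in 0.492% of all probe sets. The 261 calls numbered 401 when vehicle rat 3 was left out, 159 or 147 when E2 rat 1 or 2 was left out and 164 when E2+3-MC rat 1 was left out, and both genes were called in each of these fits.

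Chemerin came after resistin. Rarres2 intensity was 601.9, 571.1 and 918.6 in E2+3-MC rats, 604.3, 484.6 and 552.4 in E2 rats, 1370, 1039 and 1213 in 3-MC rats and 1225, 763.9 and 1109 in vehicle rats. The E2 rats lay below all vehicle rats and the E2+3-MC rats below all 3-MC rats, but E2+3-MC rat 3 exceeded vehicle rat 2. With E2 against vehicle the log2 change was -0.88 (95% interval -1.32 to -0.43), and its adjusted p of 0.0525 was not under the threshold. Without vehicle rat 2 it was -1.07 with an adjusted p of 0.0238, which is a call. In E2+3-MC against 3-MC the change was -0.80 (95% interval -1.24 to -0.36, adjusted p = 0.403), and against vehicle it was -0.56 (adjusted p = 0.433). Over the 6 rats with E2 and the 6 without, Rarres2 was 1.79-fold lower (log2 -0.84, 95% interval -1.15 to -0.53, adjusted p = 0.0103).

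Leptin and adiponectin were lower with E2 by smaller or less certain amounts. Lep intensity was 739.4, 672.3 and 815.5 in E2 rats, against 1377, 1501 and 1015 in vehicle rats. These groups did not overlap, and the log2 change of -0.78 had a 95% interval of -1.53 to -0.02 and an adjusted p of 0.402. With 3-MC the Lep values spread widely, at 777.8, 617.6 and 1396 in E2+3-MC rats, against 652.0, 2015 and 1418 in 3-MC rats. The coefficient of variation was 44.2% in the E2+3-MC group and 50.2% in the 3-MC group. Over all 12 rats the Lep change with E2 was -0.63 (adjusted p = 0.292), and without 3-MC rat 1 it was -0.86 with an adjusted p of 0.0429.

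Adipoq intensity was 3114, 2765 and 3322 in E2 rats, against 4136, 3998 and 3549 in vehicle rats. The groups did not overlap, and the fall was 1.27-fold (log2 -0.34, 95% interval -0.64 to -0.05, adjusted p = 0.318). In rats given 3-MC no such step appeared, with 3574, 3230 and 4347 in E2+3-MC rats, against 3433, 3888 and 3736 in 3-MC rats (log2 0.00, 95% interval -0.29 to 0.30, adjusted p = 0.999). The interaction for Adipoq was 0.35 (95% interval -0.07 to 0.76, adjusted p = 0.982). In all, 4 of the 8 adipokines (Retn, Rarres2, Lep and Adipoq) lay in E2 rats entirely below vehicle rats, which was the case for 8.05% of all probe sets.

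Angiotensinogen had the opposite sign. Agt intensity was 643.3, 565.5 and 815.0 in E2+3-MC rats, 644.7, 606.3 and 658.6 in E2 rats, 378.1, 493.7 and 335.0 in 3-MC rats and 623.1, 363.7 and 274.3 in vehicle rats. All E2+3-MC rats exceeded all 3-MC rats, and vehicle rat 1 lay within the range of the E2 rats. The log2 difference was 0.66 with E2 against vehicle (95% interval 0.14 to 1.18, adjusted p = 0.261) and 0.73 with E2+3-MC against 3-MC (95% interval 0.21 to 1.24, adjusted p = 0.763). When vehicle rat 1 was left out, E2 and vehicle differed by 0.97 with an adjusted p of 0.0459. Over the 6 rats with E2 and the 6 without, the difference was 0.69 (95% interval 0.33 to 1.06, adjusted p = 0.063), and it was called without vehicle rat 1 (0.85, adjusted p = 0.00835), with quantile normalization (0.73, adjusted p = 0.0382) and with the level of skeletal muscle markers as a covariate (0.84, adjusted p = 0.0222).

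Nampt intensity was 561.6, 922.9 and 1024 in E2+3-MC rats, 604.4, 542.0 and 516.7 in E2 rats, 834.3, 474.1 and 409.8 in 3-MC rats and 524.3, 420.2 and 454.3 in vehicle rats. The E2+3-MC rats all exceeded the vehicle rats (log2 0.78, 95% interval 0.25 to 1.32, adjusted p = 0.389), and 1 3-MC rat stood with them. In that comparison Nampt and Retn were the 2 adipokines without overlap, against 14.2% of all probe sets in either direction. In E2+3-MC against 3-MC, 3 adipokines (Retn, Rarres2 and Agt) did not overlap, against 7.96% of all probe sets.

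Cfd and Apln, like Adipoq, Lep, Nampt and Agt, were called in no comparison of the main fit. Cfd intensity ran between 2867 and 3888 in E2+3-MC rats, 3020 and 3527 in E2 rats, 2113 and 3180 in 3-MC rats and 2493 and 3305 in vehicle rats. Its difference over the 6 rats with E2 and the 6 without was 0.32 (95% interval 0.06 to 0.59, adjusted p = 0.274). Apln intensity ran between 117.4 and 166.9 in E2+3-MC rats, 141.0 and 159.7 in E2 rats, 146.4 and 235.8 in 3-MC rats and 156.8 and 210.3 in vehicle rats, and the same difference was -0.22 (95% interval -0.50 to 0.06, adjusted p = 0.558).

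Across the 8 genes, the median log2 change with E2 against vehicle was -0.28, and it was 0.02 over all tested probe sets. With E2+3-MC against 3-MC the medians were -0.11 and 0.02. At an unadjusted p under 0.05, 5 of the 8 adipokines and 11.7% of all probe sets differed between E2 and vehicle. The adipokines thus did not move as a group: Retn, Rarres2, Lep, Adipoq and Apln had negative estimates with E2, and Cfd, Nampt and Agt positive ones. Within groups, the highest correlation of log2 values among the 8 genes was that of Adipoq and Lep (r = 0.807 over 12 arrays, each as its deviation from the group mean), which is a description of arrays that share any difference in fat content.

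The fat of the gland was followed through 15 adipocyte markers that exclude the 8 adipokines. With E2 against vehicle 0 rose and 3 fell: Slc2a4, the insulin-responsive glucose transporter (log2 -0.98, adjusted p = 0.00441), Pparg, the master regulator of fat cell differentiation (-1.02, adjusted p = 0.0157), and Lpl, which frees fatty acids from lipoproteins (-0.72, adjusted p = 0.0289). The median of the 15 was -0.45. Their summed intensity ran between 17960 and 20660 in E2 rats, against 24510 and 28610 in vehicle rats, and between 19960 and 27870 in E2+3-MC rats, against 23110 and 30400 in 3-MC rats. None of the markers was at 0 in any rat. Leaving out vehicle rat 1 or 2 reduced the 3 lower markers to 1 or 2, and leaving out E2 rat 1, 2 or 3 reduced them to 1, 1 or 2. Over the 6 rats with E2 and the 6 without, 6 of 15 were lower, against 0.359% of all probe sets. The other 3 were Dgat2, Gpd1 and Acsl1, enzymes of triglyceride synthesis and fatty acid activation. The count of 6 became 2 when vehicle rat 1, any E2 rat or E2+3-MC rat 1 was left out. It was 3 when 3-MC rat 2 was left out and 1 when E2+3-MC rat 2 was.

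Retn was also set against these markers rat by rat. The Retn log2 difference from the vehicle mean, minus the median difference of the 15 markers in the same rat, averaged -1.15 ± 0.182 in E2 rats and 0.01 ± 0.142 in vehicle rats (SD, n = 3 each). It averaged -1.05 ± 0.0813 in E2+3-MC rats and 0.15 ± 0.34 in 3-MC rats (SD, n = 3 each). Over the 6 rats with E2 and the 6 without, the difference was -1.18. These values are given without a test because Retn was already seen to separate the rats in each of these comparisons. Each of the 6 rats with E2 was lower than each of the 6 without, at -0.965 or less in the E2-treated rats and at -0.216 or more in the others. This sets Retn against these 15 markers only. Lipid genes outside them were also called lower with E2 against vehicle: Pnpla3 (-2.10), Elovl6 (-1.55), Acaca (-1.385) and Fasn (-1.22). Retn was not set against these genes rat by rat.

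**Figure D3:**
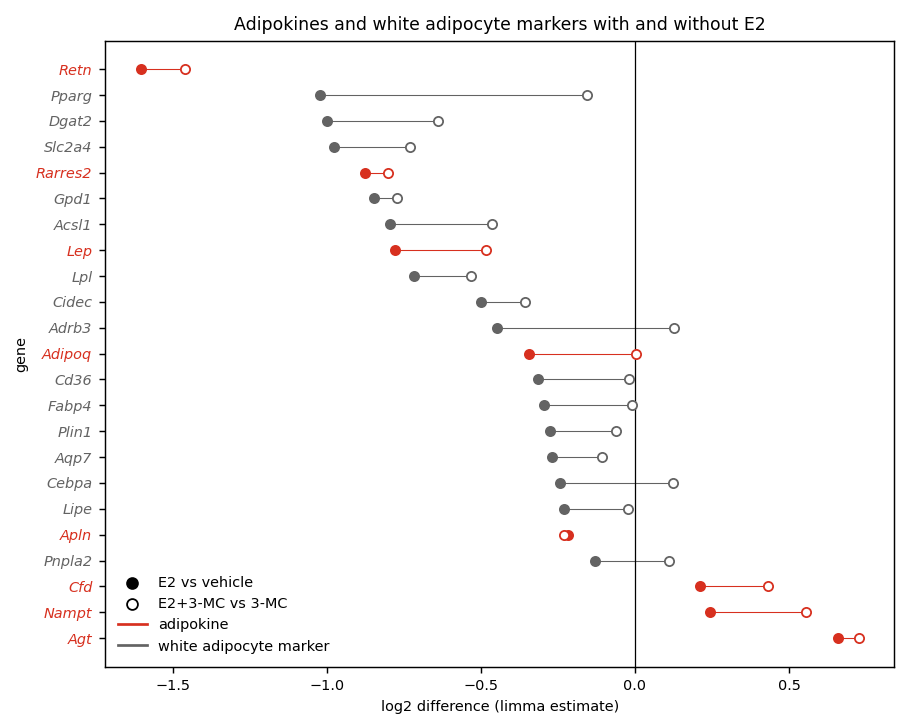
Log2 differences (x axis) of the 8 adipokines (red) and the 15 white adipocyte markers (gray), one gene per row, with filled points for E2 against vehicle and open points for E2+3-MC against 3-MC. Retn is leftmost in both comparisons at -1.60 and -1.46, and Agt (0.66 and 0.73) is rightmost. Rarres2 lies among the lower fat markers with E2 against vehicle (-0.88) and is at -0.80 with E2+3-MC against 3-MC.

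Other cell types shifted in the same rats. With E2 against vehicle, 9 of 14 luminal epithelial markers were higher and 0 lower (median log2 0.87), and their summed intensity ran between 10440 and 13270 in E2 rats, against 6441 and 7420 in vehicle rats. These 9 were Krt18, Cdh1, Cldn3, Cldn7, Esrp1, Prlr, Foxa1, Gata3 and Muc1, with log2 changes between 0.61 (Cldn3) and 1.73 (Prlr, the prolactin receptor). With E2+3-MC against 3-MC, 0 of the 14 were called, and 0.103% of all probe sets were called higher. Of the 14, 6 were higher at an unadjusted p under 0.05, and the methods' t-test called 0. Their median was 0.215, against 0.0156 over all probe sets. The sums were 7928 to 10260 in E2+3-MC rats, against 6681 to 8712 in 3-MC rats. The 9 luminal calls numbered 4 or 6 when vehicle rat 1 or 3 was left out and 2 when E2 rat 1 or 2 was left out. The basal epithelial markers Krt14 and Krt17 were higher with E2, and neither was called when vehicle rat 1 or 2 or E2 rat 1 or 2 was left out. Among 12 myeloid markers Cd14 alone was called, higher with E2, while their median was -0.50, and it was not called when vehicle rat 1 or 2 or any E2 rat was left out. Of the tested fibroblast, endothelial, lymphocyte and brown adipocyte markers 0 were called in the model of all 12 arrays or in the methods' t-test, and 1 endothelial marker was called lower with the replicate block, with quantile normalization and with median centering. At an unadjusted p under 0.05, 5 of 10 fibroblast, 7 of 8 endothelial, 0 of 7 lymphocyte and 1 of 3 brown adipocyte markers were lower. The smallest p values belonged to Dcn (-0.48) and Dpt (-0.37) among fibroblast markers, Esam (-0.50) and Pecam1 (-0.65) among endothelial ones, Cd4 (-0.32) and Cd79b (-0.22) among lymphocyte ones and Ppargc1a (-0.35) and Cox8b (-2.14) among brown adipocyte ones. The part of epithelial, stromal or immune cells in the Retn difference was not tested. Of 11 muscle markers 0 were called or had an unadjusted p under 0.05 with E2 against vehicle, and the methods' t-test called 0, with Myh2 (-2.19, adjusted p = 0.431) and Pvalb (-1.82, adjusted p = 0.692) nearest. With the muscle level as a covariate, added after the values were seen, the Retn change with E2 was -1.52 (adjusted p = 0.00108).

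The genes whose log2 values followed Retn most closely over the 12 arrays, among 12420 genes, were Aox3, an aldehyde oxidase (r = 0.971), Slc16a14, of the monocarboxylate transporter family (r = 0.961), Ramp1, a partner protein of the calcitonin receptor-like receptor (r = 0.951), Rbp4, the plasma carrier of retinol (r = 0.944), and Tmem182 (r = 0.942). These coefficients include the step between the rats with and without E2. As deviations from the group means, r was 0.732 for Aox3, 0.572 for Slc16a14, 0.844 for Ramp1, 0.704 for Rbp4 and 0.653 for Tmem182. Aox3 averaged 224.1 ± 21.9 in E2 rats and 480.9 ± 37.5 in vehicle rats (SD, n = 3 each). Rbp4 averaged 582.0 ± 75.1 in E2 rats and 1339 ± 166.7 in vehicle rats (SD, n = 3 each).

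**Figure D4:**
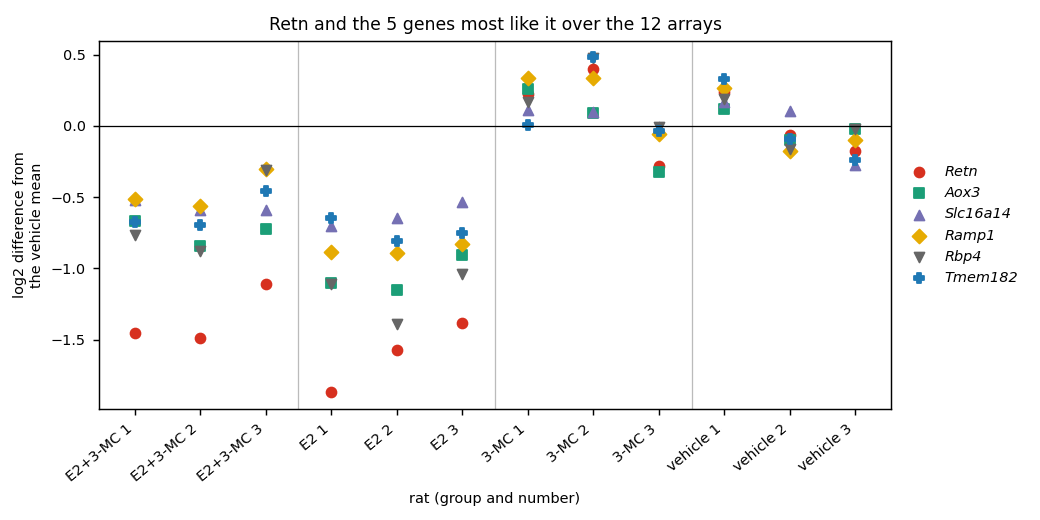
Log2 difference from the vehicle mean (y axis) of Retn and the 5 genes most like it in each of the 12 rats (x axis, group and rat number). All 6 genes lie below 0 in the 6 rats given E2, and Retn is the lowest of them in each of these rats, at -1.87 in E2 rat 1 and -1.11 in E2+3-MC rat 3. The 5 genes were chosen by r with Retn over these same 12 arrays.

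The genes most like Rarres2 were Nabp1, a single-stranded DNA-binding protein (r = 0.963), Dlat, a subunit of the pyruvate dehydrogenase complex (r = 0.96), Akr1b1, aldose reductase (r = 0.955), Ywhag (r = 0.952) and the homeobox gene Meox2 (r = 0.947). Of these, Nabp1 was called lower with E2 (log2 -0.87, adjusted p = 0.0148), and the other four were not called. Of the 5 genes most like Retn, 4 were called lower with E2, and Tmem182 (-0.73) had an adjusted p of 0.0512.

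Among other proteins that adipocytes secrete, 20 were tested, and with E2 against vehicle 0 rose and 1 fell, Rbp4 (log2 -1.18, adjusted p = 0.00599). Rbp4 was 776.0, 718.4 and 1073 in E2+3-MC rats, against 1495, 1857 and 1324 in 3-MC rats (log2 -0.86, adjusted p = 0.13). Angptl4, an inhibitor of lipoprotein lipase, averaged 1090 in E2 rats and 640.0 in vehicle rats (log2 0.77, adjusted p = 0.0749). The median of the 20 was -0.19. Within the resistin family, Retnla (-0.23, adjusted p = 0.703) and Retnlg (-0.47, adjusted p = 0.749) were not called, and Retnlb was too dim to be tested.

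The receptors of the adipokines were called in no comparison. Of 11 tested, 0 rose and 0 fell with E2, and 3 were lower and 0 higher at an unadjusted p under 0.05. The apelin receptor Aplnr averaged 463.2 in E2 rats and 666.8 in vehicle rats (log2 -0.50, adjusted p = 0.102), and the adiponectin receptor Adipor2 averaged 328.7 in E2 rats and 463.9 in vehicle rats (log2 -0.48, adjusted p = 0.116). Over the 6 rats with E2 and the 6 without, Aplnr (-0.47, adjusted p = 0.0244) and Adipor2 (-0.42, adjusted p = 0.044) passed the threshold on p and not that of 1.5-fold. The chemerin receptor Cmklr1 had a log2 difference of -0.45 (adjusted p = 0.453). The median of the 11 was -0.36.

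The pathways in which Agt, Nampt and Cfd work held no called gene. For the renin-angiotensin system, 11 genes were tested, with a median of 0.03 with E2 against vehicle. The aminopeptidases Anpep (log2 -0.52, adjusted p = 0.0976) and Enpep (0.39, adjusted p = 0.392), which trim angiotensin peptides, had the smallest p. For NAD salvage, 10 genes had a median of -0.02, with Nnmt, which methylates nicotinamide, at -0.44 (adjusted p = 0.422) and Naprt, which uses nicotinic acid, at 0.23 (adjusted p = 0.668). For the alternative complement pathway, 9 genes had a median of -0.14, with the complement inhibitor Cd55 at -0.42 (adjusted p = 0.341) and the anaphylatoxin receptor C3ar1 at -0.92 (adjusted p = 0.601). At an unadjusted p under 0.05, 3 renin-angiotensin, 1 NAD salvage and 1 complement gene differed. Of 14 adipocyte transcription factors, 0 rose and Pparg fell, and Pparg was not called when vehicle rat 1 or E2 rat 1 or 2 was left out.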

How the data were processed

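Total RNA of mammary gland tissue was labeled with the standard Affymetrix whole transcript protocol and hybridized to Gene 1.0 ST arrays, 1 rat per array. The methods name several glands of both sides as frozen for RNA. They do not say which of these glands gave the RNA of an array. The values deposited by the authors are linear intensity values per probe set, summarized with PLIER in Affymetrix Expression Console (versions not given in the sources used here). The methods also name quantile normalization, a baseline at the control median and removal of the lowest 20th percentile. The deposited values are not centered on the controls, hold all 29214 probe sets and have array medians between 85.65 and 109.5.

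Gene symbols came from the platform annotation, with 15310 probe sets carrying 1 symbol, 323 several and 13581 none listed. Symbols were updated through RefSeq (GRCr8). Where a gene had several probe sets, that with the highest mean intensity was used. Values were taken as log2(intensity + 16), probe sets at or under the 20th percentile of the mean were left out, and 1 limma model (limma 3.58.1, R 4.3.3) with a mean per group was fitted to the 12 arrays, with two-sided tests. Fold changes are on that scale. Promoters were searched and figures drawn in Python 3.11.15 with matplotlib 3.10.9. The fit was checked on simulated data.

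The 8 genes, the gene lists and the tests were chosen with earlier results of these data known. Genes were named by a rule: all 8 adipokines, the 5 genes with the highest r to Retn and to each other adipokine called, each list member called, and otherwise the 2 members of a list with the smallest p in E2 against vehicle. Angptl4, Cmklr1, Pnpla3, Elovl6, Acaca, Fasn, Lefty1 and Abca8a, and the fellow members of the resistin family, were named after their values were seen.

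Rats are numbered 1 to 3 in each group and no source says that a number marks a shared litter or day. Deviations from the group means of same-numbered arrays correlated at 0.341, 0.442 and 0.564 for 3-MC and vehicle, which meets the rule for pairing on the data and not on the labels. The model has no block, and the block was an alternative, for 3-MC against vehicle also in a fit of those 6 arrays, where it changed no call. Every other pair of groups had at least 1 correlation under 0.1. Alternatives were the replicate block, arrays of the compared groups alone, a pseudocount of 1, no filter, quantile normalization, median centering, the methods' t-test, muscle level as a covariate and leaving out each rat.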

Additional observations from a re-analysis of the deposited data

How the results depend on the processing

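Of 856 alternative values of adipokine differences, 842 kept their side of the threshold, 4 lost a call, 10 gained one and 0 reversed a call. Among the 842, 41 had the opposite sign, each for a difference that was not called either way. With E2 against vehicle, the adipokines called numbered 2 with the replicate block, quantile normalization, median centering and the muscle covariate, as Rarres2 joined Retn each time (adjusted p = 0.0176, 0.0106, 0.0174 and 0.0485). The replicate block changed no other call of an adipokine. Over the rats with E2 against those without, Agt was called with quantile normalization (0.73, adjusted p = 0.0382) and with the muscle covariate (0.84, adjusted p = 0.0222).

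The methods' t-test with adjustment, run on the log2 values of the main fit without the methods' normalization and baseline, is not the authors' full procedure. It called 7 probe sets and 0 adipokines with E2 against vehicle (Retn -1.60, adjusted p = 0.178). It called 0 and 0 with E2+3-MC against vehicle (Retn -1.35, adjusted p = 0.576). With E2+3-MC against 3-MC it also called 0 and 0 (Retn -1.46, adjusted p = 0.993). For E2+3-MC against E2, 359 probe sets were called when only those arrays were fitted and 2 with quantile normalization, which gave 42 for E2+3-MC against 3-MC. The causes were not tested.

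With a rat left out, probe sets called ranged between 85 and 395 (E2 against vehicle), 22 and 85 (E2+3-MC against vehicle), 0 and 10 (E2+3-MC against E2), 19 and 42 (E2+3-MC against 3-MC), 0 and 1 (interaction), and 147 and 401 (rats with E2 against rats without). Adipokines called ranged between 1 and 2 with E2 and 0 and 1 with E2+3-MC, both against vehicle. The Retn change with E2+3-MC against vehicle ranged between -1.47 and -1.23. A group left with 2 rats took its spread from the pooled estimate. Scaling moved the median of all probe sets by less than 0.1 on the log2 scale.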
